A study of Rattus norvegicus with 60 samples.

Results

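Potassium channel genes were taken from the RNA table of rat hippocampal CA1 as the rows whose symbol begins with Kcn and another letter, with at least 1 FPKM (fragments per kilobase of transcript, scaled to sequencing depth) in at least 5 of 34 libraries. Of 22865 rows in the table, 97 carried such a symbol and 66 met the level rule. These 66 rows hold 65 symbols in 20 subfamilies, because Kcnip2 has 2 rows, on opposite strands of chromosome 1. They comprise 23 voltage-gated pore-forming subunits (Kcna, Kcnb, Kcnc, Kcnd, Kcnh, Kcnq), 8 modifier subunits of voltage-gated channels (Kcnf, Kcng, Kcns, Kcnv), 6 calcium- or sodium-activated subunits (Kcnma, Kcnn, Kcnt), 11 inward rectifiers (Kcnj), 6 tandem-pore leak channels (Kcnk) and 12 auxiliary or related proteins (Kcnab, Kcnip, Kcne, Kcnmb, Kcnrg).

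Potassium channels let potassium leave the cell and so set the resting potential, end action potentials and limit repetitive firing. In CA1 pyramidal neurons, channels formed by Kcnd subunits with Kcnip and Dpp partners carry a transient A-type current in dendrites, Kcnq subunits carry the M-current, and Kcnn and Kcnma channels carry currents that follow calcium entry. Inward rectifiers set excitability in neurons and buffer extracellular potassium in glia, and tandem-pore channels carry the background leak.

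The study measured mRNA and DNA methylation in CA1 of Sprague-Dawley rats aged 90 to 120 d, at 1 h and at 24 h following training in contextual threat recognition. The RNA groups are threat 24 h (n = 6 libraries), place 24 h (n = 5), threat 1 h (n = 8), place 1 h (n = 6) and naive (n = 9), the last without a stated time. Methylated DNA, captured on a methyl-binding domain protein (MBD) and sequenced, was measured at each time in 3 threat, 4 place and 3 naive libraries, beside 3 libraries of uncaptured input DNA. The labels describe no handling of the threat and place animals beyond that training, and do not say that libraries came from separate animals. P-values here therefore measure the spread between these libraries, which may be technical.

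Relative depth of the RNA libraries, read from low FPKM values, ran from 0.838 to 1.22 of the median library, and 12472 to 12947 genes per library reached 1 FPKM. The CA1 markers Wfs1 and Fibcd1 were detected in all 34 libraries. A few libraries stood apart by cell type markers. Threat 1 h libraries 4 and 7 had a mean of 5.26 and 4.60 log2(FPKM + 1) over 9 choroid plexus markers, against 1.93 or less in the other 32. Naive library 4 had the lowest CA1 marker mean (2.98), followed by place 1 h library 3 (3.33) and threat 1 h library 3 (3.47). Place 1 h library 3 (3.55) and threat 1 h library 3 (3.29) had the highest means over 10 CA2 and CA3 markers. Place 24 h library 4 had a CA1 marker mean of 3.66, against 4.23 or more in the other place 24 h libraries, and the highest mean of all 34 libraries over 10 oligodendrocyte markers (7.80). In bulk tissue, fewer cells of a type and less RNA per cell cannot be told apart.

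The most abundant potassium channel mRNA in CA1 was Kcnab2, a cytoplasmic beta subunit of Kcna channels. Its level averaged 144 FPKM over the 34 libraries, with a lowest library of 99.8 and a highest of 191 FPKM. Its relative Kcnab1 averaged 37.7 FPKM, and Kcnip3, a calcium-binding partner of Kcnd channels also known as a transcriptional repressor, averaged 32.2 FPKM. Among pore-forming subunits, the highest mean levels belonged to the astrocytic inward rectifier Kcnj10 (29.4 FPKM) and the G-protein-gated inward rectifier Kcnj9 (28.8 FPKM). Kcnc1, a fast delayed rectifier, averaged 23.1 FPKM. The Elk-type channel Kcnh3 averaged 22.2 FPKM, and the A-type subunit Kcnd2 averaged 20.2 FPKM. In their own subfamilies, Kcnmb4, the neuronal beta subunit of the large-conductance calcium-activated channel, averaged 25.5 FPKM, against 7.31 FPKM for its pore-forming partner Kcnma1. The small-conductance calcium-activated channel Kcnn2 averaged 11.6 FPKM. The FPKM unit is per length of the transcript model, so these levels can be set beside each other as far as those models are right. The table's row for Kcnh3 lies on chromosome X, where RefSeq places the gene on chromosome 7, and its row for Kcnb2 spans 2558 bases, against 471100 in RefSeq.

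The other subfamilies were led by Kcnk1, a weakly conducting tandem-pore channel, at a mean of 14.3 FPKM, by the Shaker-type channel Kcna6 at 12 FPKM and by the modifier subunit Kcng1 at 10.3 FPKM. The modifier subunits Kcnf1, Kcns3 and Kcnv1 averaged 9.04, 5.16 and 5.12 FPKM. The sodium-activated channel Kcnt1, known as Slack, averaged 6.75 FPKM. The lowest subfamilies were Kcne, led by Kcne1l at 2.99 FPKM, and Kcnrg, a channel regulator, at 1.04 FPKM.

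Summed by class, auxiliary proteins held a median of 39.3% of the potassium channel FPKM in a library and voltage-gated pores 30.6%. The auxiliary sum counts both rows of Kcnip2. Inward rectifiers held 14.8%, modifier subunits 5.65%, tandem-pore channels 4.75% and calcium- or sodium-activated channels 4.59%. Across genes, 24 members averaged under 5 FPKM, 30 averaged 5 to 20 FPKM and 12 averaged over 20 FPKM. The median of the member means was 6.96 FPKM, beside 7.79 FPKM over the 13153 genes tested. Of the 66 members, 58 reached 1 FPKM in all 34 libraries and 8 in fewer.

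**Figure D1:**
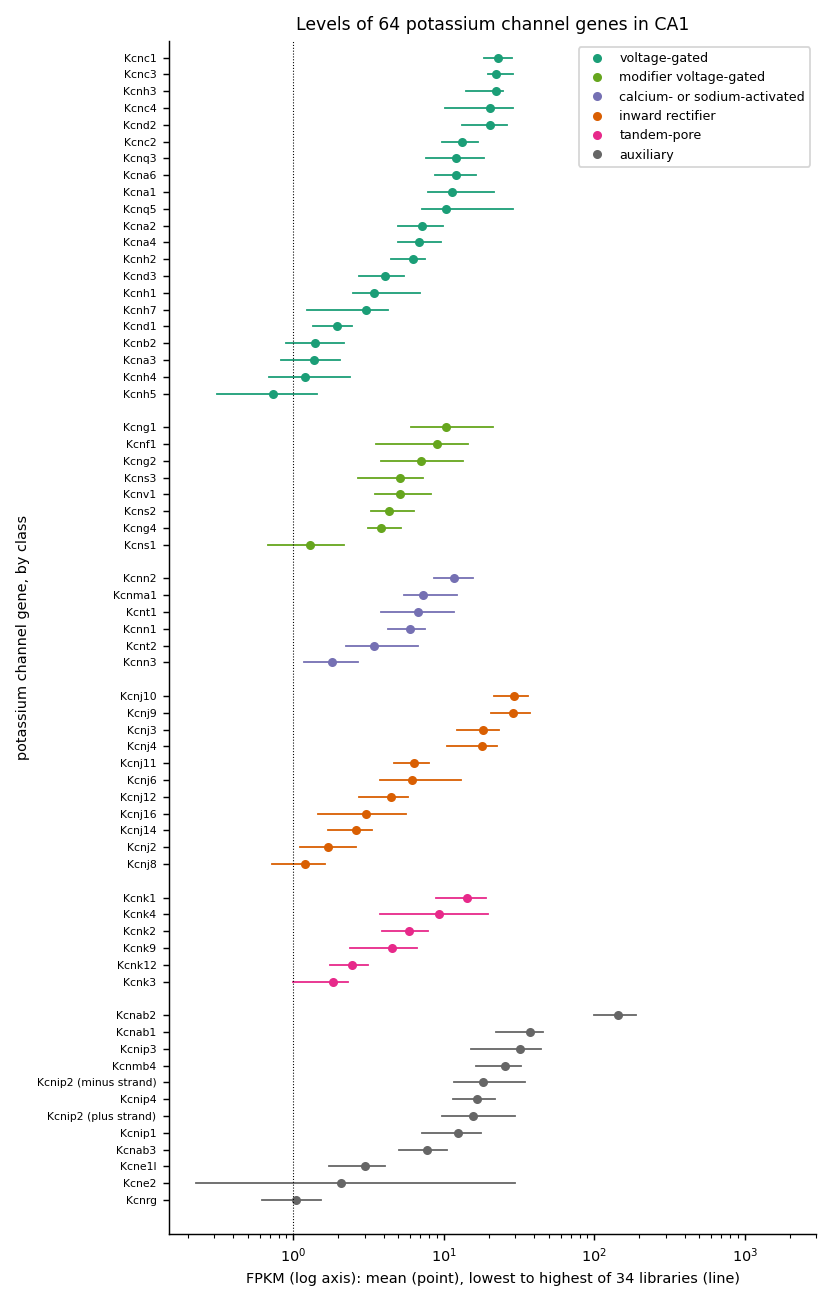
Mean FPKM of each of 64 potassium channel genes over 34 libraries (point) with the lowest and highest library (line), on a log axis and grouped by class; the dotted line is 1 FPKM. Kcnab2 lies at 144 FPKM, and most members lie between 1 and 30 FPKM.

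Near the level rule, Kcnh5, an ether-a-go-go type channel, reached 1 FPKM in 7 libraries and Kcne2, a single-pass beta subunit, in 8. Just outside it, Kcnj13 reached 1 FPKM in 4 libraries, the tandem-pore channel Kcnk13 and the beta subunit Kcnmb2 in 3 each, Kcne4 in 2 and Kcng3 in 1. A further 25 rows did not reach 1 FPKM in any library, and 3 of them (Kcnk18, Kcne1 and 1 of 2 rows for Kcna10) were listed at 0 in each library.

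Kcne2 and Kcnj13, both known in the epithelium of the choroid plexus, were high in 2 libraries. Kcne2 stood at 29.9 FPKM in threat 1 h library 4 and at 16.5 FPKM in threat 1 h library 7. In the other 32 libraries its levels were 2.18 FPKM or less. Kcnj13, an inward rectifier below the level rule, stood at 40.8 and 21.4 FPKM in the same libraries and at 2.08 FPKM or less elsewhere. These are the libraries with the high choroid plexus markers, where transthyretin (Ttr) stood at 6226 and 3700 FPKM, against 255 FPKM or less in the rest. The next library by those markers, naive library 6, also held the next highest Kcne2 (2.18 FPKM) and Kcnj13 (2.08 FPKM). Kcne2 had the largest difference between threat 1 h and place 1 h, 1.05 ± 0.46 on the log2(FPKM + 1) scale (SE; limma adjusted p = 1.00), and without libraries 4 and 7 it was 0.10.

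**Figure D2:**
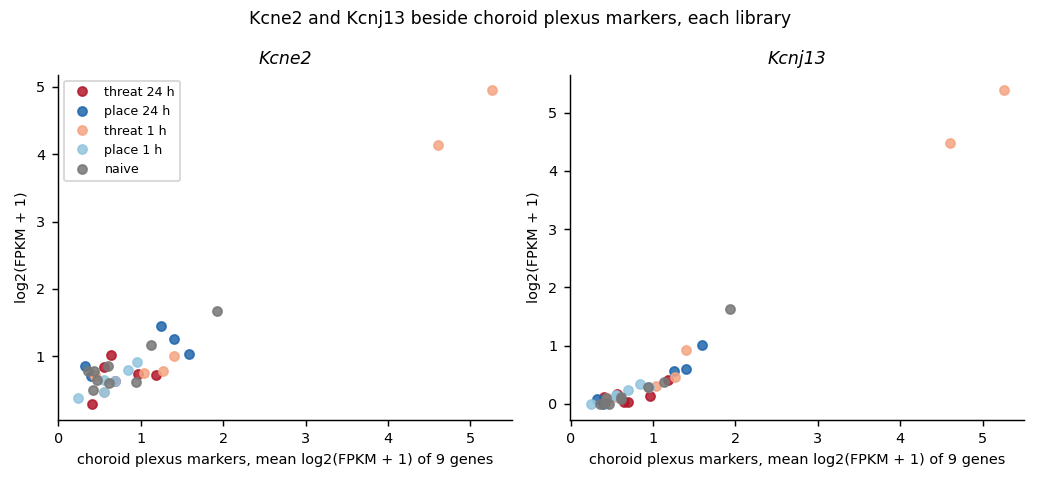
Kcne2 (left) and Kcnj13 (right) as log2(FPKM + 1) in each of 34 libraries, against the mean log2(FPKM + 1) of 9 choroid plexus markers; colors mark the 5 groups. Threat 1 h libraries 4 and 7 lie apart at marker means of 5.26 and 4.60.

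Place 1 h library 3 held the highest level of 13 of the 66 members and the lowest level of 7. How many of all genes had their highest or lowest level in this library was not counted. The M-current subunit Kcnq5 stood at 29.0 FPKM there, against 17.2 FPKM in the next library and a median of 9.57 FPKM in the other 33. Kcnj6, a G-protein-gated inward rectifier, stood at 13.0 FPKM (median of the others 5.56), the Shaker-type channel Kcna1 at 21.7 FPKM (median 10.7) and the ether-a-go-go channel Kcnh1 at 7.0 FPKM (median 3.28). Both rows of Kcnip2 were highest there too, at 29.6 and 34.5 FPKM, followed by threat 1 h library 3 at 27.4 and 32.4 FPKM. The same libraries had the highest CA2 and CA3 markers and low CA1 markers, as given above; the part of tissue makeup in these levels was not tested. Because the table holds Kcnip2 as 2 rows with similar levels, how reads were divided between them is uncertain.

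Between threat 24 h and threat 1 h libraries, 13 of 66 potassium channel genes changed, 6 higher and 7 lower (limma on log2(FPKM + 1), Benjamini-Hochberg adjusted p under 0.05 over 13153 genes). That is 19.7% of the members, against 29.3% of all genes tested, of which 12.5% were higher and 16.8% lower. Kcnk4, Kcnt1, Kcnh4 and 4 inward rectifiers fell. Kcnip1, Kcnip4, Kcnab1, Kcnj3 and Kcna4 were among those that rose. The groups did not overlap for 2 of the 66 members, Kcnt1 and Kcnab1, which is 3.03% of them, against 10.9% of all genes tested. The median difference over the 66 members was 0.02 log2, beside -0.01 over all genes, and 48 members lay within 0.25 of 0. Several of the called members also differed between blocks of naive libraries, as given below. Of 6 thalamus markers 3 fell in this comparison, with means of 1.66 to 2.06 log2(FPKM + 1) in threat 24 h and 1.97 to 2.83 in threat 1 h libraries, and of 7 CA1 markers 1 rose; their part in the changes was not tested.

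The largest changes among called members were in a leak channel and a sodium-activated channel. Kcnk4, a mechanically gated tandem-pore leak channel known as TRAAK (ENSRNOG00000021140, rn5 chromosome 1, 229174130 to 229180458, minus strand), ranged from 4.49 to 9.01 FPKM in threat 24 h libraries (median 4.97) and from 6.01 to 15.2 FPKM in threat 1 h libraries (median 12.6). Of 6 threat 24 h libraries, 5 lay at 5.99 FPKM or less, below every threat 1 h library, and library 3 at 9.01 FPKM lay among them. The level averaged 5.69 ± 1.71 FPKM in threat 24 h and 11.9 ± 3.14 FPKM in threat 1 h libraries (SD, n = 6 and 8), a difference of -0.93 ± 0.20 log2 (SE; limma adjusted p = 0.000805). Kcnt1 (ENSRNOG00000017283, rn5 chromosome 3, 8673193 to 8725541, plus strand) ranged from 4.04 to 5.58 FPKM in threat 24 h libraries (median 4.83) and from 6.18 to 10 FPKM in threat 1 h libraries (median 8.19). Each threat 24 h library was below each threat 1 h library. The difference was -0.66 ± 0.13 log2 (SE; limma adjusted p = 0.000235).

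Other channels that fell were less abundant or changed less. Kcnh4, an Elk-type voltage-gated channel near the level rule, ranged from 0.686 to 0.992 FPKM in threat 24 h libraries (median 0.779) and from 0.957 to 2.40 FPKM in threat 1 h libraries (median 1.29). It differed by -0.41 ± 0.11 log2 (SE; limma adjusted p = 0.00525), with 1 threat 1 h library inside the threat 24 h range. Kcnj14, a strong inward rectifier of neurons, ranged from 1.69 to 2.74 FPKM in threat 24 h libraries (median 2.15) and from 2.61 to 3.34 FPKM in threat 1 h libraries (median 3.03), and fell by 0.36 ± 0.08 log2 (limma adjusted p = 0.000806). The groups overlapped through a single threat 24 h library, number 5. Kcnj8, the pore of the vascular ATP-sensitive channel, ranged from 0.723 to 1.11 FPKM in threat 24 h libraries (median 0.928) and from 1.04 to 1.64 FPKM in threat 1 h libraries (median 1.47), and fell by 0.30 ± 0.07 log2 (limma adjusted p = 0.00161). The groups overlapped at threat 1 h libraries 2 and 3. Its partner Abcc9, the sulfonylurea receptor of that channel in blood vessels, also fell, by 0.42 ± 0.08 log2 (limma adjusted p = 0.000176). Of 11 endothelial and mural markers, 7 fell in the same comparison and none rose. Their mean level was 2.81 to 3.05 log2(FPKM + 1) in threat 24 h and 3.03 to 3.34 in threat 1 h libraries; the part of vessel content in the change of Kcnj8 was not tested.

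The ATP-sensitive pore of neurons, Kcnj11, ranged from 5.12 to 5.97 FPKM in threat 24 h libraries (median 5.70) and from 5.85 to 8.03 FPKM in threat 1 h libraries (median 6.92). Threat 1 h library 6 lay inside the threat 24 h range. Kcnj11 fell by 0.24 ± 0.08 log2 (SE; limma adjusted p = 0.0261), and its sulfonylurea receptor Abcc8 fell by 0.34 ± 0.08 log2 (limma adjusted p = 0.00201). Kcnj10, which takes up potassium into astrocytes, ranged from 21.7 to 30.8 FPKM in threat 24 h libraries (median 26.8) and from 29.4 to 36.3 FPKM in threat 1 h libraries (median 30.8). Threat 24 h library 4 lay inside the threat 1 h range. Kcnj10 fell by 0.25 ± 0.08 log2 (SE; limma adjusted p = 0.0177). Of 10 astrocyte markers, 1 rose and 2 fell in that comparison.

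Among the genes that rose, Kcnab1, a beta subunit that speeds inactivation of Kcna channels, separated the groups. Its level ranged from 40.3 to 45.5 FPKM in threat 24 h libraries (median 43.8) and from 29.3 to 35.4 FPKM in threat 1 h libraries (median 32.8). The groups did not overlap, and the difference was 0.40 ± 0.09 log2 (SE, limma adjusted p = 0.000809). Naive libraries ranged from 22.3 to 45.8 FPKM, and Kcnab1 was not called between them and either 24 h group. Kcnip1, a calcium-binding subunit of Kcnd channels known in interneurons, had the largest rise, 0.50 ± 0.13 log2 (SE; limma adjusted p = 0.00362). It ranged from 12.4 to 17.7 FPKM in threat 24 h libraries (median 15.5) and from 7.13 to 14.9 FPKM in threat 1 h libraries (median 9.98), and 2 threat 1 h libraries lay within the threat 24 h range. Of 10 interneuron markers, 1 rose and none fell. Kcnj3, a G-protein-gated inward rectifier subunit, ranged from 19.9 to 23.4 FPKM in threat 24 h libraries (median 20.3) and from 12.2 to 22.9 FPKM in threat 1 h libraries (median 15.6). It rose by 0.38 ± 0.10 log2 (SE; limma adjusted p = 0.00504), and threat 1 h library 3 alone reached the threat 24 h levels.

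Kcna4, an A-type channel of axons, ranged from 5.92 to 9.60 FPKM in threat 24 h libraries (median 7.89) and from 4.94 to 6.52 FPKM in threat 1 h libraries (median 5.79). Threat 24 h library 4 lay among the threat 1 h libraries. Kcna4 rose by 0.37 ± 0.10 log2 (SE; limma adjusted p = 0.00379). Kcnip4, another Kcnd partner, ranged from 14.5 to 22.1 FPKM in threat 24 h libraries (median 17.9) and from 12.7 to 17.0 FPKM in threat 1 h libraries (median 15.4), and rose by 0.24 ± 0.09 log2 (limma adjusted p = 0.0472). The groups overlapped. The call of Kcnip4 was lost without any 1 of threat 1 h libraries 4 to 7 or threat 24 h libraries 3 to 6, with a largest adjusted p of 0.142. That of Kcnj10 was lost without threat 24 h library 5 (0.0701), and that of Kcnj11 without threat 1 h library 1 (0.0556) or threat 24 h library 2 (0.0620). Without both threat 1 h libraries 4 and 7, which had high choroid plexus markers, 5 members were higher and 6 lower. Over all genes 2954 were then called, against 3855 with all libraries. Kcnj11 (limma adjusted p = 0.0569) and Kcnip4 (0.119) lost the call in that fit.

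**Figure D3:**
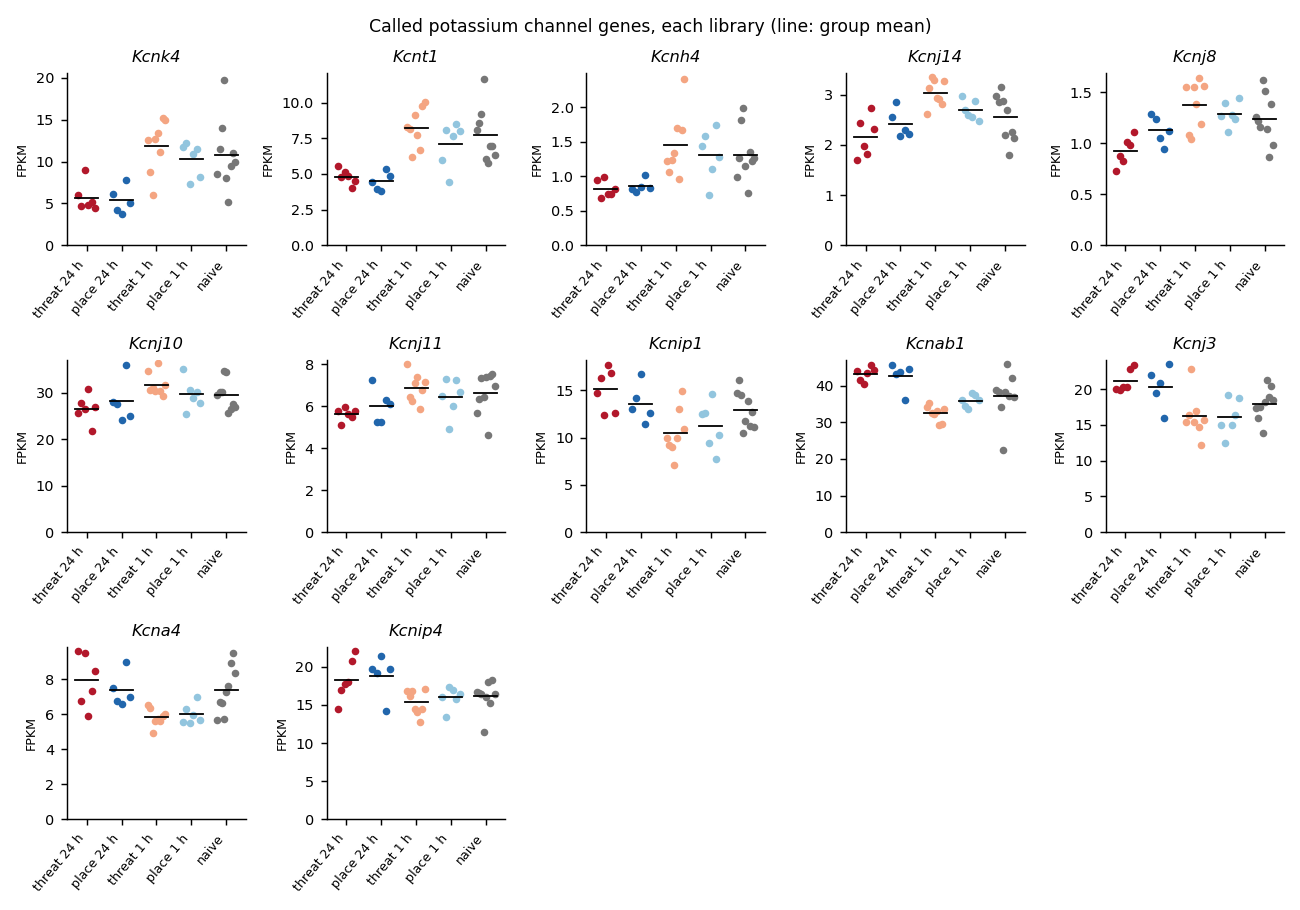
FPKM of 12 potassium channel genes called in at least 1 RNA comparison, with a point per library and a line at the mean of each group; axes start at 0. Kcnk4 and Kcnt1 are low in both 24 h groups. Kcnab1 is higher in both than in the 1 h groups, apart from place 24 h library 4 at 36.1 FPKM, and reaches 45.8 FPKM in naive libraries.

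Between place 24 h and place 1 h libraries, 2 of 66 members changed, both lower, against 13.3% of all genes tested, of which 6.61% were higher and 6.64% lower. Kcnk4 stood at 6.17, 4.22, 3.76, 7.77 and 5.0 FPKM in place 24 h libraries and ranged from 7.27 to 12.2 FPKM in place 1 h libraries (median 11.2). Place 24 h library 4 was the 1 that reached the place 1 h range. The difference was -0.84 ± 0.23 log2 (SE; limma adjusted p = 0.0130). Kcnt1 stood at 4.44, 3.93, 3.82, 5.38 and 4.89 FPKM in place 24 h libraries and ranged from 4.41 to 8.51 FPKM in place 1 h libraries (median 7.84). Place 1 h library 3, at 4.41 FPKM, lay inside the place 24 h range. The difference was -0.54 ± 0.14 log2 (SE; limma adjusted p = 0.0104). Without place 24 h library 4, 4 members were higher and 2 lower (9.09%, against 13.2% of all genes). Without place 1 h library 3, 1 was higher and 3 were lower (6.06%, against 15.9% of all genes).

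Kcnab1 stood at 45.7, 43.3, 43.7, 36.1 and 44.5 FPKM in place 24 h libraries and ranged from 33.5 to 38.0 FPKM in place 1 h libraries (median 36.1). Library 4 lay inside the place 1 h range and the others lay above it, and the gene was not called. Library 4, which also held the highest place 24 h level of Kcnk4, had the lowest CA1 marker mean and the highest oligodendrocyte marker mean of the place 24 h libraries, and their part in its Kcnab1 level was not tested. Without library 4 the Kcnk4 difference was -0.96 log2 (limma adjusted p = 0.00830). Over the 66 members, 24 h minus 1 h differences in threat and in place libraries, which share no library, had the same sign in 54 and correlated at r = 0.62, a description across genes that are not independent. The difference between naive libraries 5 to 9 and naive libraries 1 to 4 draws on none of those libraries. It had the same sign as the threat difference in 44 members (r = 0.42) and as the place difference in 40 (r = 0.57). None of these values was computed over all genes tested, so they are not shown to be particular to the members. The interaction of training and time called 0 of 66 members by limma, against 0% of all genes. At an unadjusted p under 0.05 it held 1 member, beside 360 of the 13153 genes. No other tool was run on the FPKM values. The lowest p-values in it belonged to Kcnj14 (-0.25 ± 0.12 log2, adjusted p = 1.00), Kcne2 (-1.41 ± 0.70) and Kcnj8 (-0.20 ± 0.11). The Kcne2 value was -0.46 without threat 1 h libraries 4 and 7.

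**Figure D4:**
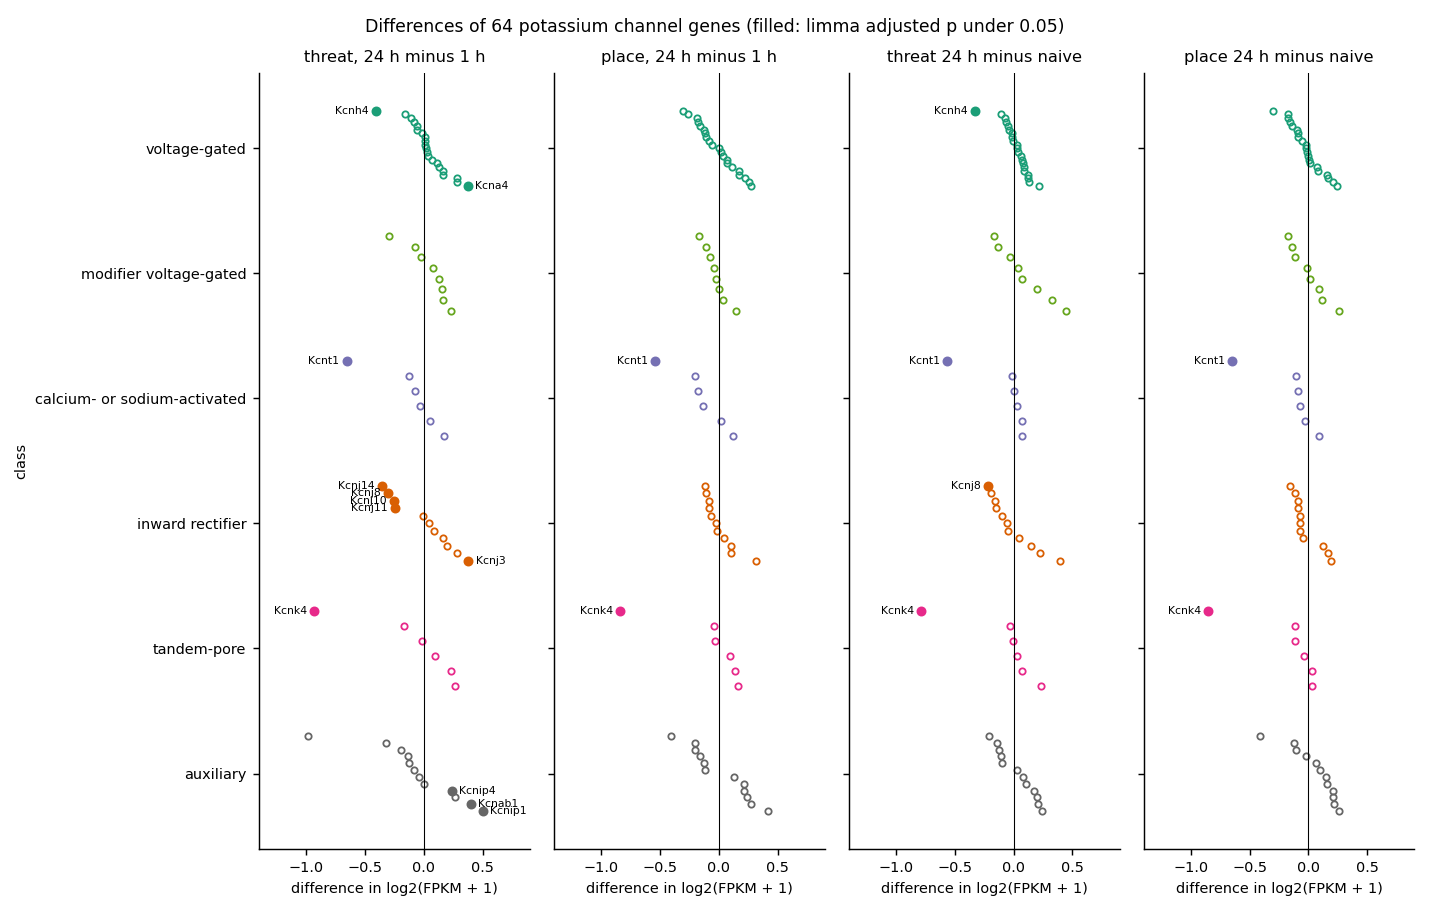
Differences in log2(FPKM + 1) of 64 potassium channel genes in 4 comparisons, by class, with filled points for genes with a limma adjusted p under 0.05. Kcnk4 and Kcnt1 are the filled points at the left in each panel; the auxiliary gene at -0.98 in the left panel is Kcne2.

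Against naive libraries, 4 of 66 members were lower in threat 24 h libraries and none was higher, where 10.1% of all genes tested were called (4.32% higher and 5.77% lower). Kcnk4 ranged from 4.49 to 9.01 FPKM in threat 24 h libraries and from 5.20 to 19.7 FPKM in naive libraries (median 9.97), a difference of -0.78 ± 0.20 log2 (SE; limma adjusted p = 0.00996). Kcnt1 ranged from 4.04 to 5.58 FPKM in threat 24 h libraries and from 5.78 to 11.7 FPKM in naive libraries (median 6.98), a difference of -0.56 ± 0.12 log2 (SE; limma adjusted p = 0.00344). Kcnt1 was the 1 member whose groups did not overlap (1.52%, against 1.60% of all genes). Kcnh4 differed by -0.33 ± 0.11 log2 (limma adjusted p = 0.0424) and Kcnj8 by -0.22 ± 0.07 log2 (limma adjusted p = 0.0391). Of 11 endothelial and mural markers, 4 fell in this comparison. The call of Kcnh4 was lost without any 1 of threat 24 h libraries 1, 2, 4, 5 and 6 and naive libraries 2, 3, 4 and 7, and that of Kcnj8 without any 1 of threat 24 h libraries 1, 2, 3 and 5 and naive libraries 1 to 5 and 8.

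In place 24 h libraries, 2 of 66 members were lower than in naive libraries and none was higher, where 5.05% of all genes were called (1.49% higher and 3.56% lower). They were again Kcnk4, at 3.76 to 7.77 FPKM in place 24 h and 5.20 to 19.7 FPKM in naive libraries, and Kcnt1, at 3.82 to 5.38 FPKM in place 24 h and 5.78 to 11.7 FPKM in naive libraries. Kcnk4 differed by -0.85 ± 0.21 log2 (SE; limma adjusted p = 0.0146), a call lost without place 24 h library 2 (0.0533) or 3 (0.0657). Kcnt1 differed by -0.65 ± 0.13 log2 (SE, limma adjusted p = 0.00386). It was the 1 member whose groups did not overlap (1.52%, against 1.38% of all genes). Both comparisons use the same naive libraries.

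The comparisons with naive tissue depended on which naive libraries entered. The deposited table lists the naive columns in 2 blocks, libraries 5 to 9 and libraries 1 to 4, a split that is not a labelled batch. Kcnk4 ranged from 5.20 to 11 FPKM in naive libraries 5 to 9 and from 8.49 to 19.7 FPKM in naive libraries 1 to 4. Kcnt1 ranged from 5.78 to 6.98 FPKM in libraries 5 to 9 and from 8.10 to 11.7 FPKM in libraries 1 to 4, so that its blocks did not overlap. Against naive libraries 5 to 9 alone, limma called 0 of 66 members in threat 24 h libraries, where 0.456% of all genes were called. In place 24 h libraries it called 0 members in that fit, where 0.0836% of all genes were called. At an unadjusted p under 0.05 there were 7 members in threat 24 h (1403 of 13153 genes) and 6 in place 24 h libraries (1432 genes). Kcnk4 was then -0.54 (adjusted p = 0.289) in threat 24 h and -0.61 (0.286) in place 24 h, and Kcnt1 was -0.35 (0.231) in threat 24 h and -0.44 (0.180) in place 24 h. Against naive libraries 1 to 4 alone, 3 members were higher and 5 lower in threat 24 h libraries (12.1%, against 29.6% of all genes), and 2 were higher and 4 lower in place 24 h libraries (9.09%, against 23.7% of all genes). The counts over all genes thus moved with the naive libraries as well. Libraries 5 to 9 minus 1 to 4 differed by -0.54 log2 for Kcnk4, -0.48 for Kcnt1, -0.31 for Kcnj14, 0.37 for Kcna4 and 0.28 for Kcnab1. These are the directions of their threat 24 h minus 1 h differences. Of the members called there, Kcnj11 (0.05) and Kcnip1 (-0.18) went the other way. How far the 24 h against 1 h changes reflect what separates these naive libraries was not tested. For Kcnt1 both 24 h groups lay at 5.58 FPKM or less and the naive libraries of either block at 5.78 FPKM or more. Over all genes tested, 1.60% did not overlap between threat 24 h and naive libraries, and 1.38% between place 24 h and naive libraries.

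At 1 h, limma called 0 of 66 members between threat and naive libraries. Over all genes, 0.928% were called (0.806% higher and 0.122% lower). At an unadjusted p under 0.05 there were 5 members, beside 2120 of the 13153 genes. Kcna4 ranged from 4.94 to 6.52 FPKM in threat 1 h libraries (median 5.79) and from 5.69 to 9.51 FPKM in naive libraries (median 7.28), a difference of -0.28 ± 0.09 log2 (SE; limma adjusted p = 0.0981). Kcnk2, a mechanically gated leak channel, differed by -0.26 ± 0.09 log2 (adjusted p = 0.153), and Kcnj14 by 0.20 ± 0.07 log2 (adjusted p = 0.156). Without naive library 4 there were 2 members called (4.70% of all genes), and without naive library 1 (1.30%) or 6 (0.479%) there was 1. Against naive libraries 5 to 9 alone, 3 members were called (4.55%, against 19.8% of all genes), among them Kcna4 (-0.45, adjusted p = 0.000541) and Kcnj14 (0.33, 0.00132); against naive libraries 1 to 4 they were -0.08 (0.880) and 0.03 (0.959).

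Between place 1 h and naive libraries limma called 0 of 66 members. Over all genes, 0.129% were called (0.0912% higher and 0.038% lower). Beside 1284 of the 13153 genes, 3 members had an unadjusted p under 0.05. The lowest p-values belonged to Kcna4 (-0.25 ± 0.09 log2, limma adjusted p = 0.343), the minus-strand row of Kcnip2 (0.35 ± 0.17, adjusted p = 0.498) and the inward rectifier Kcnj4 (-0.20 ± 0.10, adjusted p = 0.499). In place 1 h library 3 both Kcnip2 rows were at their highest and Kcnj4 stood at 10.6 FPKM, against 16.6 to 18.7 FPKM in the other place 1 h libraries. Against naive libraries 5 to 9 alone, Kcna4 was the 1 member called (-0.42, adjusted p = 0.00355), where 12.7% of all genes were called.

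Threat and place libraries were compared directly at each time. At 24 h limma called 0 of 66 members and 0% of all genes. Beside 381 of the 13153 genes, 1 member had an unadjusted p under 0.05. The member was Kcnk9, an acid-sensitive leak channel, which ranged from 3.99 to 6.69 FPKM in threat 24 h libraries (median 5.94) and stood at 4.53, 4.07, 4.17, 3.49 and 4.30 FPKM in place 24 h libraries. The groups overlapped, and it differed by 0.35 ± 0.13 log2 (SE; limma adjusted p = 1.00). Kcnd3, an A-type subunit, had the next lowest p, at 4.34 ± 0.731 FPKM in threat 24 h and 3.56 ± 0.498 FPKM in place 24 h libraries (SD, n = 6 and 5), followed by Kcnj8 (-0.15 ± 0.08 log2). At 1 h limma called 0 of 66 members and 0% of all genes. Beside 560 of the 13153 genes, 2 members had an unadjusted p under 0.05. These were Kcne2, described above, and Kcnk1, at 15.9 ± 2.35 FPKM in threat 1 h and 13.3 ± 1.70 FPKM in place 1 h libraries (SD, n = 8 and 6), with a difference of 0.24 ± 0.12 log2 (SE; limma adjusted p = 1.00). At 24 h, 61 of 66 members differed by less than 0.25 log2 between threat and place, with a median SE of 0.12, and at 1 h 65 of 66 did, with a median SE of 0.11.

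Summed over the members of a subfamily, most totals varied little between groups. The highest and lowest of the 5 group medians differed by 1.05 to 1.57 times over the 20 subfamilies. The widest was Kcnt (Kcnt1 and Kcnt2), with totals of 7.50 to 9.02 FPKM in threat 24 h, 7.14 to 7.95 in place 24 h, 10.2 to 13.3 in threat 1 h, 9.71 to 11.6 in place 1 h and 8.36 to 15.2 in naive libraries. In both trained groups the 24 h libraries lay below the 1 h libraries without overlap. Kcnt was the single subfamily of 20 whose total did so in either 24 h against 1 h comparison. Over all genes tested, 10.9% did not overlap in the threat and 8.43% in the place comparison. Of the 66 single members, 2 did not overlap in threat and 0 in place libraries. The other member of Kcnt, Kcnt2, was not called.

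The beta subunits of the Kcnab subfamily had median totals of 212 FPKM in threat 24 h, 225 in place 24 h, 168 in threat 1 h, 174 in place 1 h and 178 in naive libraries, with overlap between groups. Most of this total is Kcnab2, which averaged 157 ± 21.9 FPKM in threat 24 h and 130 ± 14.5 FPKM in threat 1 h libraries (SD, n = 6 and 8) and differed by 0.27 ± 0.12 log2 (SE; limma adjusted p = 0.0827). Median totals of the Kcnk subfamily were 36.5 FPKM in threat 24 h, 33.6 in place 24 h, 40.7 in threat 1 h, 38.4 in place 1 h and 42.2 in naive libraries. Apart from Kcnk4, no member of that subfamily was called in any comparison. By the ratio of group medians the least variable subfamily was Kcnip, although Kcnip1 and Kcnip4 rose between threat 1 h and 24 h. Its medians were 94.2 FPKM in threat 24 h, 92.6 in place 24 h and 95.7 in threat 1 h libraries. They were 97.3 in place 1 h and 93.5 in naive libraries. Single libraries ran from 83.2 to 113 FPKM, and this total counts both rows of Kcnip2. The Kcnc subfamily of fast delayed rectifiers had medians of 76.6 FPKM in threat 24 h, 78.0 in place 24 h, 79.3 in threat 1 h, 79.5 in place 1 h and 82.2 in naive libraries. None of its 4 members was called in any comparison, and the same was true of the Kcnd (3 members), Kcnq (3) and Kcnn (3) subfamilies. Other subfamilies, such as Kcng, Kcns and Kcne, had no call either. No call in so few members does not set a subfamily apart, where 0% to 29.3% of all genes were called per comparison.

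Genes whose products bind, scaffold or regulate potassium channels were listed as partners. Of 36 listed, 35 were found and 33 tested. Between threat 24 h and threat 1 h libraries 8 rose and 3 fell, which is 33.3% of those tested, against 29.3% of all genes. Between place 24 h and place 1 h libraries 2 rose and 3 fell, which is 15.2%, against 13.3% of all genes. Both shares lie near the background. Calm2, a calmodulin gene whose product is a subunit of Kcnn and Kcnq channels, averaged 607 ± 28.2 FPKM in threat 24 h and 467 ± 17.1 FPKM in threat 1 h libraries (SD, n = 6 and 8), a difference of 0.38 ± 0.06 log2 (SE; limma adjusted p = 2.88e-05). It also rose in place libraries, by 0.28 ± 0.07 log2 (limma adjusted p = 0.00621). Dpp6, the transmembrane partner of Kcnd channels, rose by 0.42 ± 0.10 log2 in threat libraries (limma adjusted p = 0.00194). Adam11, a membrane protein that positions Kcna channels at cerebellar synapses in mice, fell by 0.48 ± 0.09 log2 in threat (limma adjusted p = 0.000301) and by 0.52 ± 0.10 log2 in place libraries (limma adjusted p = 0.00181). In place libraries Abcc8 fell by 0.40 ± 0.09 log2 (limma adjusted p = 0.00438) and Abcc9 by 0.27 ± 0.09 log2 (limma adjusted p = 0.0356). None of the 11 endothelial and mural markers was called there, and their mean level was 2.98 to 3.15 log2(FPKM + 1) in place 24 h (median 3.02) and 2.88 to 3.28 in place 1 h libraries (median 3.25). The part of vessel content in the change of Abcc9 was not tested. Against naive libraries, 1 partner was higher and 3 were lower in threat 24 h (12.1%, against 10.1% of all genes), and 2 were lower in place 24 h libraries (6.06%, against 5.05% of all genes), shares again near the background.

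Methylated DNA at the genes' starts was read as the mean RPKM (reads per kilobase, scaled to sequencing depth) of the 500-base bins within 1000 bases of the start that the RNA table gives. All 66 members had a value. The libraries of the 1 h set held between 31.4 M and 39.9 M recovered reads, and those of the 24 h set between 42.2 M and 59.5 M. As for most genes, starts were captured below input: the median ratio of captured to input was 0.246 at 1 h and 0.557 at 24 h over the members, beside 0.191 and 0.449 over all 13153 genes. At both times, 13 members (19.7%) were captured above input, beside 15.6% of all genes. The highest were 3 inward rectifiers. Kcnj2, a strong inward rectifier, stood at 2.38 ± 0.336 RPKM in captured and 0.371 ± 0.0465 RPKM in input libraries at 1 h (SD, n = 10 and 3), a ratio of 6.41, and at a ratio of 2.95 at 24 h. Kcnj16, a partner of Kcnj10, had ratios of 6.74 at 1 h and 2.57 at 24 h. Kcnj11 had ratios of 5.48 at 1 h and 2.78 at 24 h. Among the lowest ratios were those of Kcnn2 (0.0139 at 1 h and 0.0993 at 24 h), Kcnj3 (0.0336 and 0.0995) and Kcnma1 (0.0316 and 0.107).

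The length of a gene's row in the table went with this order. Of the 13 members captured above input at both times, 9 had rows under 5000 bases, and their median row spanned 2558 bases. Of the other 53 members, 5 had rows that short, and the median was 54612 bases. RefSeq gives longer genes for the 3 highest, for example 10564 bases for Kcnj2 against a row of 1284, so for such members the window may lie at an inner exon and not at the promoter. Of 31 members whose row is within 10% of the RefSeq length, 1 was captured above input at both times. This was Kcnd2, at 1.01 ± 0.0861 RPKM in captured and 0.304 ± 0.0229 RPKM in input libraries at 1 h (SD, n = 10 and 3).

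**Figure D5:**
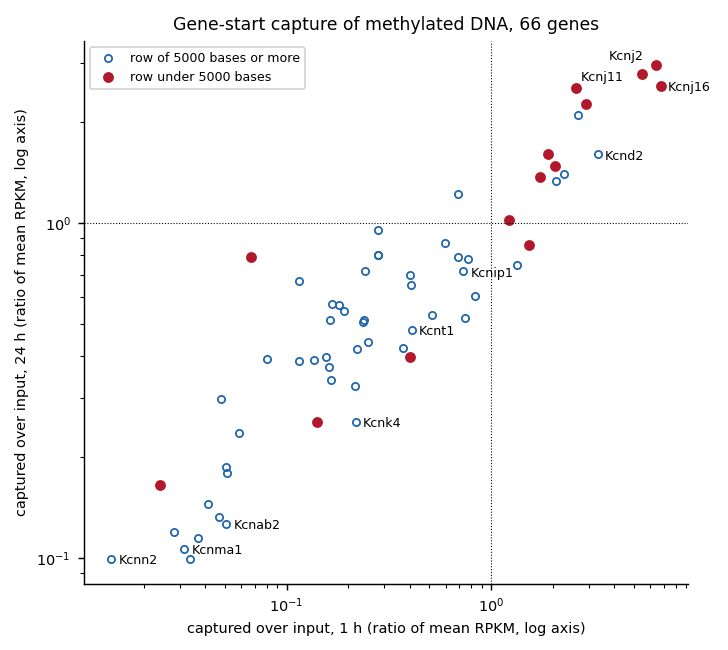
Ratio of mean captured to mean input RPKM at the gene start at 1 h (horizontal) and 24 h (vertical) for 66 potassium channel genes, on log axes; filled points have table rows under 5000 bases and dotted lines mark a ratio of 1. The upper right holds mostly filled points, and Kcnd2 lies among them at 3.32 and 1.60.

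The methyl-binding domain binds methylated CG pairs, and the CG pairs before a start were counted. The counted stretch is the 250 bases before a RefSeq start. Capture was read over a wider window, within 1000 bases of the row's start on either side. RefSeq sequence (GRCr8) for the 250 bases before the start was matched for 42 of the 66 members. The motif CG, which reads the same on both strands, occurred a median of 15.5 times in them, beside 6 times over 27457 RefSeq promoters, and 69.0% of them held at least 10, beside 38.4% of all. Those promoters were not limited to genes that meet the level rule, as the members do. The comparison therefore does not set the members beside genes of like expression. Members captured above input at both times had 1 to 20 CG pairs (7 with sequence, median 8), and the others had 1 to 44 (35 with sequence, median 18). Sequences are shown for the members called in 4 RNA comparisons (Kcnk4 and Kcnt1), for a high and a low capture among members with a row close to RefSeq length (Kcnd2 and Kcnma1) and for the most abundant member (Kcnab2), each 5′ to 3′ on the gene's strand with CG pairs in capitals. The Kcnk4 stretch is chr1:213555862-213556111 on the minus strand, and that of Kcnt1 is chr3:29081089-29081338 on the plus strand. Those of Kcnd2 (chr4:50742235-50742484, plus), Kcnma1 (chr15:351675-351924, plus) and Kcnab2 (chr5:168270761-168271010, minus) follow. The start may differ from that of the rn5 rows.
Kcnk4: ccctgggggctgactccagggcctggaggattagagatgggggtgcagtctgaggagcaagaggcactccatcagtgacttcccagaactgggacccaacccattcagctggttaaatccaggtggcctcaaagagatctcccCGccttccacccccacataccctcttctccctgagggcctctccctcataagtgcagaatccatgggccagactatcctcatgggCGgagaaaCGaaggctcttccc
Kcnt1: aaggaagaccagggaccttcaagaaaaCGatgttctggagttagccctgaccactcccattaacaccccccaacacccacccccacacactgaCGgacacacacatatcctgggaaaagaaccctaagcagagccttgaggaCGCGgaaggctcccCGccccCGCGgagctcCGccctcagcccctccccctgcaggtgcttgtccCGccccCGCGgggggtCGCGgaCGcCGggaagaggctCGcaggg
Kcnd2: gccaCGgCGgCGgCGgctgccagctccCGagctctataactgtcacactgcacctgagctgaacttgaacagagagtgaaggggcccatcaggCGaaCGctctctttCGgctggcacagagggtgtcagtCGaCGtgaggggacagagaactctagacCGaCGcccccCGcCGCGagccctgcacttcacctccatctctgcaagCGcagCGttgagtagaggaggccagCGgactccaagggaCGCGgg
Kcnma1: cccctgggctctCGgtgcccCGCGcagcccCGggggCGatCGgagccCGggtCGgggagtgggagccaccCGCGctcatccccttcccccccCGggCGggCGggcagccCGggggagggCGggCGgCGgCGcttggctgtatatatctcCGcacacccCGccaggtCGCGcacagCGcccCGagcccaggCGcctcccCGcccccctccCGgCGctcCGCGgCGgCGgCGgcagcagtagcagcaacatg
Kcnab2: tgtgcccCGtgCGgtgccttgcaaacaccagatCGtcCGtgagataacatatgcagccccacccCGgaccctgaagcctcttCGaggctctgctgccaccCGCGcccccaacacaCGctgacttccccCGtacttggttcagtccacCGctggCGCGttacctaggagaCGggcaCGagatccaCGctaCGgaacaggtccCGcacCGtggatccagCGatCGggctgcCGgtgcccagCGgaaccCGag

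Kcnk4 held 3 CG pairs and Kcnt1 16 in these 250 bases, while Kcnd2 held 20, Kcnma1 33 and Kcnab2 24. Kcnk4 was captured at 0.170 ± 0.0393 RPKM against an input of 0.781 ± 0.120 RPKM at 1 h (SD, n = 10 and 3), a ratio of 0.218, from a median of 19 reads per captured library. Kcnt1 was captured at 0.244 ± 0.0758 RPKM against an input of 0.594 ± 0.0725 RPKM at 1 h, a ratio of 0.410. Kcnma1 and Kcnab2 had a median of 2 reads each per captured library at 1 h, with ratios of 0.0316 and 0.0508. Kcnd2, with a CG count close to that of Kcnab2, had a ratio of 3.32 and a median of 106 reads. Across the 42 members with sequence, the CG count of these bases and log2 capture over input in the wider window correlated at r = -0.24. Across all 66, log2 level and capture correlated at r = -0.21. Both are descriptions over genes measured in the same libraries.

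Capture at the gene starts was compared between groups at each time. By limma on log2(RPKM + 0.25), 0 of 66 members and 0% of the 13153 genes were called in each of 6 comparisons. At an unadjusted p under 0.05 there were 9 members between threat and naive, 2 between place and naive and 5 between threat and place libraries at 1 h. At 24 h there were 8 between threat and naive, 5 between place and naive and 6 between threat and place libraries. Over all genes the unadjusted shares were 8.31%, 4.79% and 6.70% at 1 h and 10.1%, 5.24% and 11.3% at 24 h, in the same order. The lowest p-values at 1 h belonged to Kcnip1, the minus-strand row of Kcnip2 and Kcna3 for threat against naive, to Kcnma1, Kcnk3 and Kcng4 for place against naive, and to Kcnj4, Kcnh5 and Kcnip1 for threat against place, with limma adjusted p-values of 0.536 to 0.956. At 24 h they belonged to Kcnj11, Kcne2 and Kcnip3 for threat against naive, to Kcnt2, Kcnq3 and Kcnj6 for place against naive, and to Kcnd2, Kcnj11 and Kcnk4 for threat against place, with limma adjusted p-values of 0.254 to 0.930. With edgeR on the recovered reads, 1 member was called in 1 comparison, threat against naive at 1 h, where 0.144% of all genes were called. In the other comparisons edgeR called 0 members, with 0.0152% of all genes for place against naive and 0.0684% for threat against place at 1 h. At 24 h it called 0.0076% of all genes for threat against naive, 0% for place against naive and 0.0304% for threat against place.

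That member was Kcnip1, whose start stood at 0.674, 0.555 and 0.477 RPKM in threat 1 h libraries and at 0.203, 0.313 and 0.281 RPKM in naive 1 h libraries. Place 1 h libraries stood at 0.308, 0.395, 0.175 and 0.573 RPKM and overlapped both. Input libraries stood at 0.618, 0.511 and 0.497 RPKM. The row used for Kcnip1 spans 218690 bases, against 369300 in RefSeq, so this start may not be that of RefSeq. The threat libraries lay above the naive ones, with a difference of 0.67 ± 0.20 log2 in limma (SE, adjusted p = 0.536) and 1.09 log2 in edgeR (adjusted p = 0.0219). The share of all gene starts that separate in groups this small is not given here. At 24 h the start of Kcnip1 stood at 0.292, 0.169 and 0.165 RPKM in threat libraries and at 0.224, 0.235 and 0.181 RPKM in naive libraries, with overlap. Its mRNA differed by -0.29 ± 0.11 log2 between threat 1 h and naive libraries (SE; limma adjusted p = 0.204), with 10.5 ± 2.44 FPKM in threat 1 h and 12.9 ± 1.96 FPKM in naive libraries (SD, n = 8 and 9).

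The starts of the genes that changed most in mRNA gave no call. Kcnk4 stood at 0.0662, 0.0525 and 0.0739 RPKM in threat 24 h libraries and at 0.117, 0.106, 0.106 and 0.136 RPKM in place 24 h libraries. The difference was -0.22 ± 0.09 log2 (SE, limma adjusted p = 0.348, edgeR adjusted p = 0.300). Naive 24 h libraries stood at 0.0928, 0.0572 and 0.0754 RPKM, within the range of the threat libraries or between them and the place libraries. The start of Kcnt1 averaged 0.104 ± 0.0244 RPKM in threat 24 h and 0.127 ± 0.0145 RPKM in naive 24 h libraries (SD, n = 3 each; limma adjusted p = 0.814). Among the starts with the lowest p-values, Kcnj11 averaged 0.864 ± 0.0681 RPKM in threat 24 h, 0.633 ± 0.0620 RPKM in place 24 h and 0.611 ± 0.0885 RPKM in naive 24 h libraries (SD, n = 3, 4 and 3). It was 0.37 ± 0.13 log2 above naive (SE; limma adjusted p = 0.324) and 0.33 ± 0.12 log2 above place (limma adjusted p = 0.261). Kcnd2 averaged 0.657 ± 0.172 RPKM in threat 24 h and 0.460 ± 0.0649 RPKM in place 24 h libraries (SD, n = 3 and 4; limma adjusted p = 0.254).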

How the data were processed

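RNA was given as a table of FPKM per gene, deposited by the authors for 34 libraries, and captured DNA as RPKM signal in 500-base bins, deposited by the authors for 26 libraries. Per the submitters' processing notes, TopHat 1.4.0, Bowtie, DESeq2 and edgeR were used and the builds rn5 and mm10 are named; the role of each is not given in the sources used here. The bins' coordinates and gene positions were used as rn5. Every bin's RPKM came out as whole reads within 0.1 reads, and these reads were used for edgeR. Of the columns, 0 could not be mapped to a sample.

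RNA was tested with limma 3.58.1 (R 4.3.3, with trend) on log2(FPKM + 1), with a mean for each of 5 groups, 34 libraries, 29 residual degrees of freedom and 9 comparisons. Tested were 13153 genes that reached 1 FPKM in 5 or more libraries, with Benjamini-Hochberg adjustment over all of them at 0.05. A fold on this scale understates changes of low genes. Gene starts were tested with limma on log2(RPKM + 0.25) for each time separately, in 6 comparisons, with edgeR 4.0.16 quasi-likelihood as an alternative. The fits were tested on simulated data. Alternatives were another pseudocount, other filters, fits on the compared groups only, a replicate block, blocks of naive libraries and leaving out each library. Replicate numbers were not taken to pair libraries.

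The members, the marker and partner lists and the tests were chosen with earlier results of these data known. Named are the called members, the 3 members with the lowest p where none was called, the highest member of each subfamily, those nearest the level rule, up to 4 called partners per comparison, and for gene starts the lowest p and the highest and lowest capture ratios. Genes named outside this rule, such as Kcnq5, Kcnj6, Kcnh1 and Kcna1, were chosen after their values were seen. A few genes that this rule covers are counted but not reported here.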

Additional observations from a re-analysis of the deposited data

Results flagged for a closer look

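Of 100 combinations of 20 potassium channel genes and 5 RNA groups, 9 held a library far from the rest of its group by Dixon's test, where chance alone flags about 5%. In place 24 h libraries, Kcnab1 stood at 36.1 FPKM in library 4, against 43.3 to 45.7 FPKM in the others. In naive libraries, Kcnab1 stood at 22.3 FPKM in library 4 (34.1 to 45.8 FPKM in the others), Kcnip4 at 11.5 FPKM in the same library (15.3 to 18.3 FPKM) and Kcne2 at 2.18 FPKM in library 6 (0.417 to 1.25 FPKM). Naive library 4 also had the lowest CA1 marker mean, and naive library 6 the highest choroid plexus mean among naive libraries. Kcnj3 stood at 22.9 FPKM in threat 1 h library 3, against 12.2 to 16.9 FPKM in the others. In place 1 h libraries, Kcnj4 stood at 10.6 FPKM in library 3 (16.6 to 18.7 FPKM in the others) and Kcnk1 at 16.6 FPKM in library 6 (12 to 13.6 FPKM). In threat 24 h libraries, library 3 held both Kcnk2 at 7.87 FPKM (5.32 to 6.25 FPKM in the others) and Kcnk4 at 9.01 FPKM (4.49 to 5.99 FPKM).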

How the results depend on the processing

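Between threat 24 h and threat 1 h libraries, 11 to 15 members were called when each library was left out, against 13 with all. The share of all genes called was then 24.9% to 30.6%. Between place 24 h and place 1 h libraries the count of 2 ranged from 2 to 6 on leaving out libraries (8.55% to 15.9% of all genes). It was 4 excluding place 1 h library 3, where 2086 of all genes were called. It was also 4 with naive libraries 5 to 9 only (2339 of all genes), which changes the pooled spread. Between threat 24 h and naive libraries the count of 4 ranged from 2 to 6 on leaving out libraries. It was 2 without a filter on low values (1082 of all genes called) and 2 with a filter of 5 FPKM (1055). It was 2 in a fit of those 2 groups alone, 8 with naive libraries 1 to 4 and 0 with naive libraries 5 to 9. It was 2 without any 1 of threat 24 h libraries 1, 2 and 5 and naive libraries 2, 3 and 4. Between place 24 h and naive libraries the count of 2 ranged from 1 to 3, being 1 without place 24 h library 2 or 3. It was 0 in a fit of those groups alone (4 members at an unadjusted p under 0.05, beside 2357 of all genes). It was 6 with naive libraries 1 to 4 and 0 with naive libraries 5 to 9. Between threat 1 h and naive libraries the count of 0 ranged from 0 to 2 on leaving out libraries (0.281% to 4.70% of all genes). It was 3 with naive libraries 5 to 9, where 2610 of all genes were called. Between place 1 h and naive libraries it stayed at 0 on leaving out libraries (0% to 0.289% of all genes). It was 1 there with naive libraries 5 to 9, where 1665 of all genes were called. For threat against naive gene starts at 1 h the count of 0 was 1 with edgeR on recovered reads (0.144% of all genes). Leaving out libraries left the other counts of 0 at 0. The share of all genes called moved too: between threat 24 h and naive libraries it was 10.1% in the full fit, 5.85% to 14.0% on leaving out libraries, 29.6% with naive libraries 1 to 4, 0.456% with naive libraries 5 to 9 and 2.96% in a fit of those groups alone, and between place 24 h and naive libraries it was 5.05%, 1.79% to 8.52%, 23.7%, 0.0836% and 0%. Apart from the alternatives given here, the cause of these moves was not tested. Libraries with the same replicate number did not deviate together: 17 of 58 such pairs correlated over 0.1, against 117 of 399 pairs with different numbers. With a replicate block, 13 members were called between threat 24 h and threat 1 h (3989 of all genes). There were 3 between place 24 h and place 1 h (1801 genes) and 3 between threat 24 h and naive libraries (1879 genes). The 13 were then 7 higher and 6 lower, and Kcnj11 lost its call (limma adjusted p = 0.0590). Of the values of single named genes under the alternatives, 829 kept direction and side of the threshold, 50 lost the call, 6 gained it and none turned round.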
